A study of Mus musculus with 6 samples.

Results

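The RNA-binding proteins described here belong to 4 families that mark neural progenitors and neurons: the Elav-like genes Elavl1, Elavl2, Elavl3 and Elavl4, the Nova genes Nova1 and Nova2, the Rbfox genes Rbfox1 and Rbfox2, and the Musashi genes Msi1 and Msi2. All probe sets that the platform annotation assigns to 1 of these 10 genes alone were taken, which gave 40 of the 45037 probe sets that are not array controls. A probe set is a group of short probes that together report 1 transcript region. Of the 40, 29 passed the signal filter, a mean log2 signal over 7 in OC1-KO or in WT, against 20888 of all probe sets. Each of the 10 genes kept at least 1 probe set, and 0 of the 29 passed through 1 genotype alone.

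Retinas came from 3 OC1-KO and 3 WT mouse embryos, with 1 Affymetrix mouse genome array for each embryo. OC1-KO embryos lacked Onecut1, a homeodomain transcription factor, in every tissue, and WT embryos were their littermates. Both genotypes carried the same mixed background, made from R1 ES cells and a Swiss strain and then bred into C57Bl/6 over a few generations. The sample labels give the stage as E14 and the series design as E14.5. The embryos of each genotype were numbered 1 to 3, and the labels do not say whether embryos of the same number shared a litter, a day or a hybridisation. Whole retina was measured, so fewer cells of a type and less RNA per cell cannot be told apart.

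These proteins act on RNA after transcription. Elav-like proteins bind AU-rich and U-rich stretches and stabilise or splice their targets. Elavl1, also called HuR, is made in nearly all cells, while Elavl2, Elavl3 and Elavl4 (HuB, HuC and HuD) are largely neuronal and are among the first proteins of newborn neurons, ganglion cells of the retina included. Nova and Rbfox proteins govern alternative splicing in neurons, Nova through YCAY motifs and Rbfox through UGCAUG. Musashi proteins bind UAG-containing sites and are known for translational control in neural stem cells, and in the mature retina for splicing in photoreceptors.

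The letters around matches to the Onecut core motif in the promoters are shown here because the factor removed from the OC1-KO embryos binds DNA. RefSeq windows of 300 bases, 250 before to 50 after a gene's start, were found for 8 of the 10 genes in the build GRCm38.p6. ATTGAT and ATTGAC were searched on both strands, and 2 of the 8 genes had a match, against 14.9% of all 27025 genes with such windows. A gene can have several windows, which raises its share. Counted by window, 3 of the 19 windows of these genes had a match, against 13.1% of all 32851 windows. Of the 3, 2 belong to Elavl4 and hold the same match. Capitals mark the motif, or its reverse complement where it lies on the other strand, and each sequence reads 5′ to 3′ on the strand of its gene.
Nova1, chr12:46818874-46818903, minus strand, motif beginning 124 bases before the start: cctcagactgctATTGATccgattaaagaa
Elavl4, chr4:110287639-110287668, minus strand, motif beginning 129 bases before the start: atcattaacatcGTCAATctggcagtagct
A match describes the letters of the window only. The brightest probe sets of Nova1 and Elavl4 differed between genotypes by less than the spread of the arrays.

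Across all kept probe sets, 0 passed an adjusted p under 0.05 between OC1-KO and WT (percent called 0, limma with Benjamini-Hochberg adjustment), and 1.01% passed an unadjusted p under 0.05, of which 77 were higher in OC1-KO and 133 lower. Among the 29 kept probe sets of the RNA-binding genes, 0 passed at either threshold. Unadjusted limma p-values of the 29 began at 0.077, and each adjusted value was 1.00. OC1-KO was higher in 10 and lower in 19 of the 29, and 52.3% of all kept probe sets were lower. The median difference of the 29, OC1-KO minus WT, was -0.03 on the log2 scale, against -0.01 over all kept probe sets, with a range of -0.37 for Msi2 1435521_at to 0.47 for Msi1 1444306_at. Standard errors were between 0.13 and 0.49, with a median of 0.26. Most differences were smaller than their standard error, and the 95% interval of each of the 29 included 0, so that a change in either direction remained possible.

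**Figure D1:**
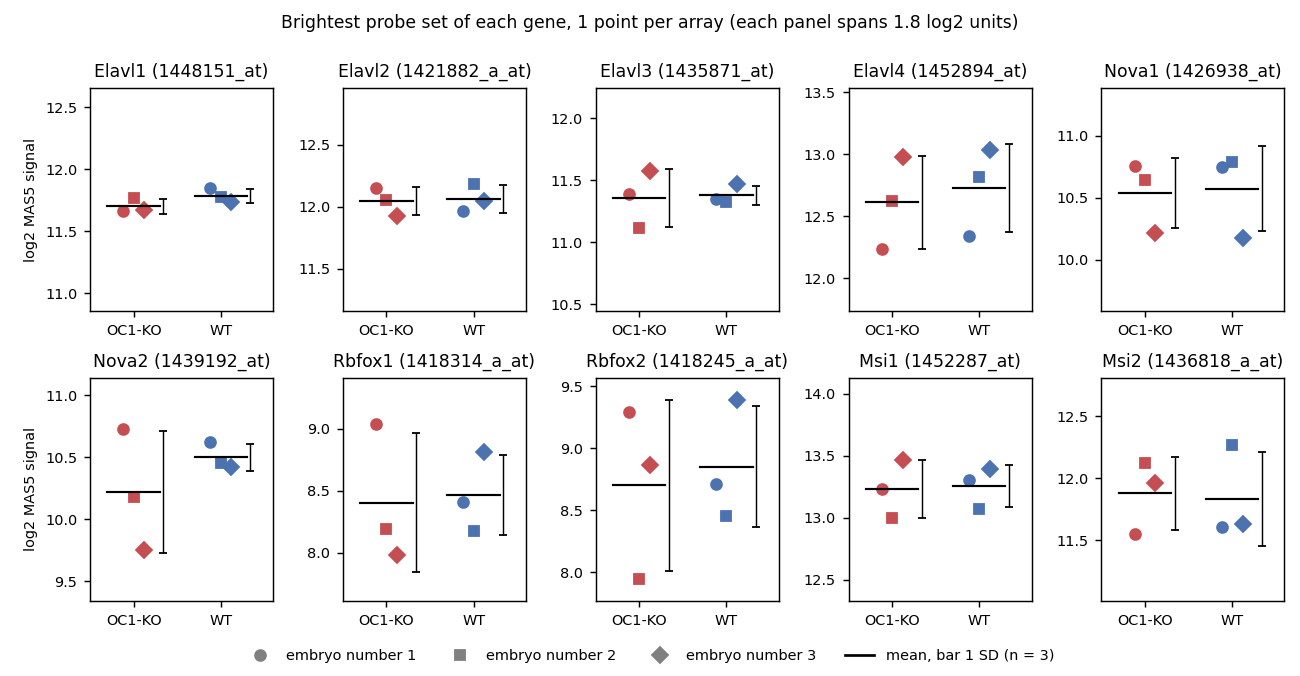
Log2 MAS5 signal of the brightest probe set of each gene in the 3 OC1-KO arrays (red, left) and the 3 WT arrays (blue, right). Symbols give the embryo number, lines the mean and bars 1 SD (n = 3), and the arrays of the genotypes overlap in each of the 10 panels.

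Elavl4, a neuronal stabiliser of growth-associated mRNAs, was read by 3 probe sets, all kept. Its brightest, 1452894_at, gave log2 signals of 12.23, 12.62 and 12.98 in OC1-KO embryos 1, 2 and 3, against 12.34, 12.81 and 13.03 in WT embryos 1, 2 and 3. Arrays of the same embryo number lay close together in both genotypes, and the spread within a genotype was larger than the gap between them. The OC1-KO minus WT difference was -0.12 ± 0.26 (SE, n = 3 each), with a 95% interval of -0.73 to 0.50. This SE comes from the fit on genotype only, as do the SEs of the genotype differences below. It therefore includes the spread between embryo numbers. In a limma fit with embryo number as a block, the SE was 0.11 and the unadjusted p 0.322. The other Elavl4 probe sets gave 0.06 (1428741_at) and -0.03 (1450258_a_at).

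Elavl3, the paralog used as a pan-neuronal marker, also had 3 kept probe sets. Signals of 1435871_at were 11.39, 11.11 and 11.57 in OC1-KO embryos and 11.35, 11.33 and 11.47 in WT embryos. WT arrays all lay inside the OC1-KO range, and the difference was -0.02 ± 0.17 (SE, n = 3 each, 95% interval -0.42 to 0.37). Its other probe sets differed by 0.07 (1452524_a_at) and -0.13 (1455484_at). Elavl3 lies on chromosome 9, which also carries Onecut1.

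Elavl2 is expressed in ganglion and amacrine cells of the retina. The probe set 1421882_a_at had signals of 12.16, 12.06 and 11.93 in OC1-KO embryos, against 11.97, 12.19 and 12.05 in WT embryos. The groups were interleaved, with a difference of -0.02 ± 0.15 (SE, n = 3 each) and a 95% interval of -0.37 to 0.33. The 3 other kept Elavl2 probe sets were between -0.16 and 0.02, and 1 below the filter, 1433052_at, was at 0.26.

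Elavl1, the ubiquitous family member, had the smallest standard error of the 10 genes. Its probe set 1448151_at had signals of 11.66, 11.77 and 11.67 in OC1-KO embryos and 11.85, 11.77 and 11.74 in WT embryos. OC1-KO embryo 2 lay between the WT values, so the groups overlapped. The difference was -0.09 ± 0.13 (SE, n = 3 each, 95% interval -0.40 to 0.23). All 4 kept Elavl1 probe sets were lower in OC1-KO, by values between -0.21 and -0.0035, and none passed an unadjusted limma p under 0.05 (lowest 0.405).

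Nova1, a neuronal splicing factor that binds RNA through KH domains, had a probe set well above the filter and another below it, both designed on the same source sequence. The brighter, 1426938_at, gave 10.75, 10.64 and 10.22 in OC1-KO embryos and 10.75, 10.79 and 10.18 in WT embryos. Embryos of the same number were again nearly level, with a difference of -0.03 ± 0.23 (SE, n = 3 each, 95% interval -0.59 to 0.52). The dim 1452245_at gave 5.81, 6.13 and 5.98 in OC1-KO embryos, against 5.57, 5.34 and 5.44 in WT embryos. Its OC1-KO arrays all lay above its WT arrays, by 0.52 ± 0.19 (SE, n = 3 each), at an unadjusted limma p of 0.0363 and an adjusted p of 1.00 in a fit with no signal filter.

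Nova2, the paralog that predominates in cortex, had the largest difference among the brightest probe sets. Signals of 1439192_at were 10.73, 10.18 and 9.75 in OC1-KO embryos and 10.62, 10.46 and 10.42 in WT embryos. OC1-KO embryo 1 was the highest of the 6 and OC1-KO embryos 2 and 3 were the lowest. The difference was -0.28 ± 0.26 (SE, n = 3 each, 95% interval -0.88 to 0.33, unadjusted limma p 0.311). It was -0.04 without OC1-KO embryo 3 and -0.53 without OC1-KO embryo 1, so it rested on single arrays. The second Nova2 probe set, 1439099_at, was below the filter and varied between 2.84 and 5.96.

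Rbfox1, a splicing regulator of neurons and muscle, was read at a low level. Its probe set 1418314_a_at gave 9.04, 8.19 and 7.98 in OC1-KO embryos and 8.41, 8.17 and 8.81 in WT embryos. The OC1-KO arrays spanned the WT range, and pair differences by embryo number were 0.63, 0.02 and -0.83. The OC1-KO minus WT difference was -0.06 ± 0.31 (SE, n = 3 each, 95% interval -0.80 to 0.68). A second kept probe set, 1455358_at, was at -0.14.

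Rbfox2, the more widely expressed member of the Rbfox family, had 2 kept probe sets with differences of opposite sign. The brighter, 1418245_a_at, gave 9.29, 7.95 and 8.87 in OC1-KO embryos and 8.71, 8.45 and 9.39 in WT embryos, a difference of -0.15 ± 0.39 (SE, n = 3 each, 95% interval -1.08 to 0.78). The dimmer, 1434938_at, gave 8.42, 8.73 and 8.36 in OC1-KO embryos and 8.07, 8.11 and 8.30 in WT embryos. Its groups did not overlap, the only case among the 29 kept probe sets, where 3.56% of all kept probe sets had groups that did not overlap. The difference of 0.34 ± 0.17 (SE, n = 3 each, 95% interval -0.05 to 0.73) had an unadjusted limma p of 0.077 and an adjusted p of 1.00.

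Msi1, known for maintaining neural progenitors, was bright in all 6 arrays. Its probe set 1452287_at gave 13.23, 12.99 and 13.46 in OC1-KO embryos and 13.30, 13.07 and 13.40 in WT embryos, and the groups overlapped almost fully. The difference was -0.03 ± 0.18 (SE, n = 3 each, 95% interval -0.46 to 0.40). A second kept probe set, 1444306_at, gave 10.90, 9.56 and 9.28 in OC1-KO embryos and 9.58, 9.48 and 9.29 in WT embryos. OC1-KO embryo 1 alone stood high there, and the difference of 0.47 ± 0.41 (SE, n = 3 each) was made of pair differences of 1.33, 0.09 and -0.01.

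Msi2, the Musashi paralog with a wider expression, had the most probe sets, 8, of which 7 were kept. The brightest, 1436818_a_at, gave 11.55, 12.12 and 11.96 in OC1-KO embryos and 11.61, 12.27 and 11.63 in WT embryos. Genotypes were interleaved, with a difference of 0.04 ± 0.25 (SE, n = 3 each, 95% interval -0.54 to 0.63), the only one of the 10 brightest probe sets above 0. Of the 7, 5 were higher and 2 lower in OC1-KO, between -0.37 and 0.30. The dim 1421231_at, below the filter, gave 5.80, 5.95 and 6.09 in OC1-KO embryos, all under the 6.48, 6.46 and 6.42 of WT embryos. Its difference was -0.50 ± 0.18 (SE, n = 3 each), at an unadjusted limma p of 0.0341 and an adjusted p of 1.00 in a fit with no signal filter.

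**Figure D2:**
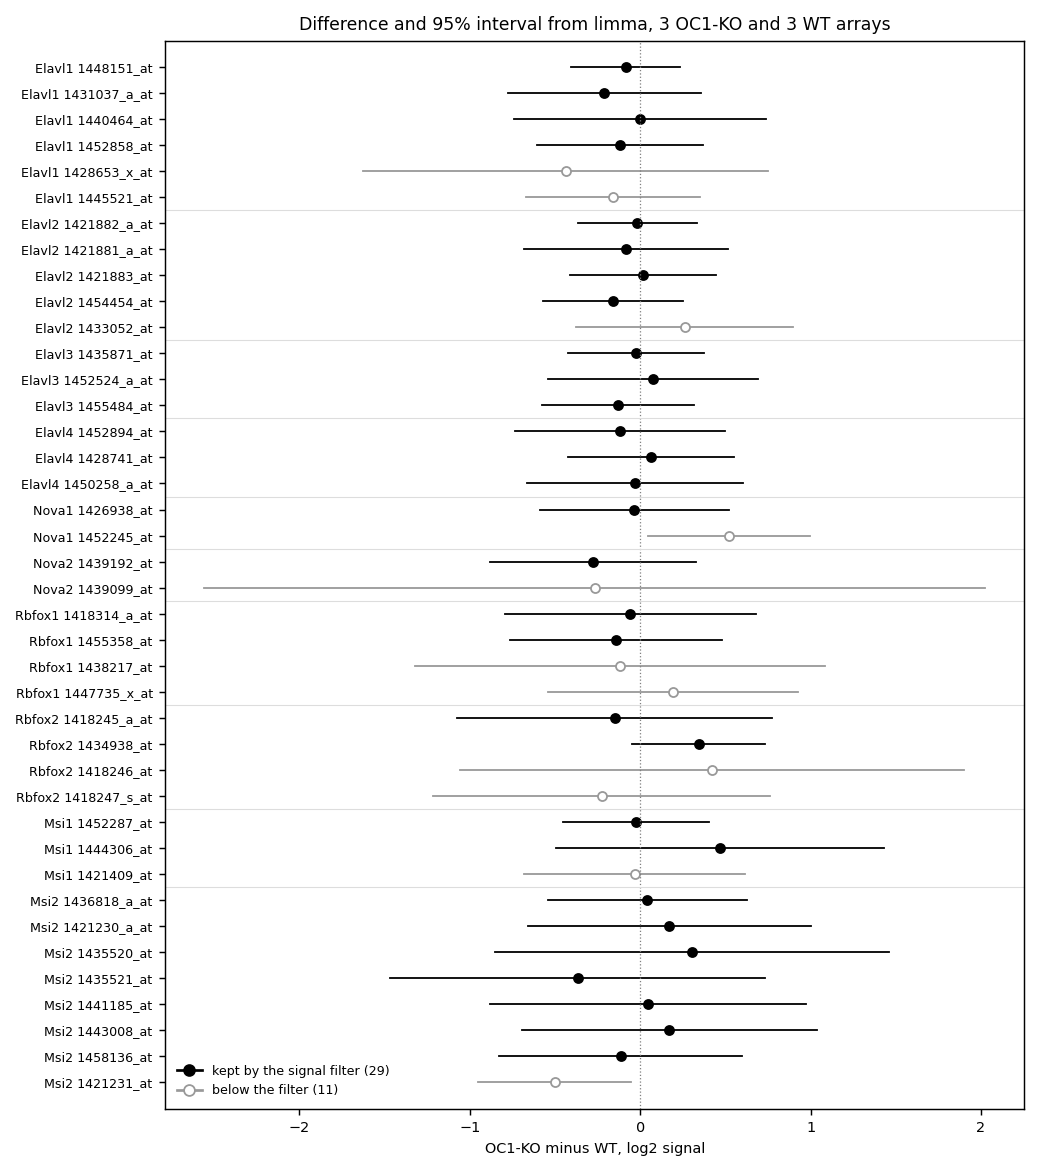
OC1-KO minus WT difference in log2 signal (horizontal axis) for the 40 probe sets, grouped by gene, with 95% intervals from limma. Filled points are the 29 kept probe sets, whose intervals all include 0, and open grey points the 11 below the filter, where the intervals of Nova1 1452245_at and Msi2 1421231_at do not.

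Of the 11 probe sets below the filter, 4 were higher and 7 lower in OC1-KO, and the Nova1 and Msi2 probe sets above were the 2 at an unadjusted limma p under 0.05, where 5.15% of all 24149 probe sets below the filter were. Neither direction was shared by the brightest probe set of the same gene, which was at -0.03 for Nova1 and 0.04 for Msi2. Among the 8 genes with more than 1 kept probe set, 6 had probe sets in both directions. With embryos of the same number treated as pairs, 3 of the 29 kept probe sets were higher in OC1-KO in all 3 pairs and 3 lower, where 23.4% of all kept probe sets had their pairs in 1 direction. A limma fit with the pairs as a block called 4.37% of all kept probe sets at an unadjusted p under 0.05, and 0 of these 29.

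The arrays differed more by embryo number than by genotype. Beside the difference between genotypes, the arrays of the embryos numbered 3 were set against those numbered 1 and 2, with genotype in the model. This contrast was chosen with earlier results of the same arrays known, in which number 3 stood apart, so its p-values describe these arrays only. The size of the difference by number had a median of 0.30 among the 29 kept probe sets, against 0.11 for the difference by genotype, and over all kept probe sets these medians were 0.24 and 0.10. The difference by number was larger than that by genotype in 25 of the 29. Of the total sum of squares, embryo number took a median of 74.8% and genotype 2.50% in the 29, against 70.1% and 5.02% over all kept probe sets. Embryo number has 3 levels and genotype 2, so number would take the larger share on average even where neither had an effect.

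**Figure D3:**
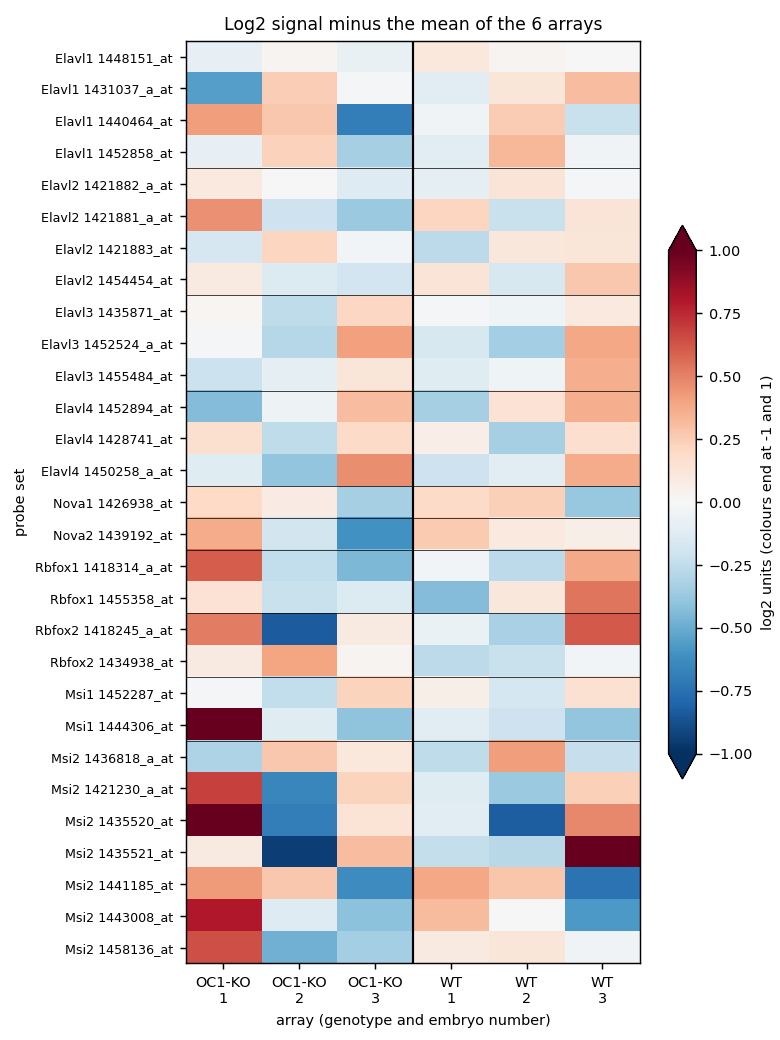
Log2 signal of the 29 kept probe sets (rows, grouped by gene) in each array (columns, OC1-KO left and WT right), each centred on its mean over the 6 arrays. Red is above and blue below that mean, and the columns of embryos numbered 3 are alike in both genotypes for Elavl3, Elavl4, Nova1 and most Msi2 probe sets.

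Both number 3 arrays lay above the other 4, or both below, in 13 of the 29 kept probe sets (8 above and 5 below), and in 38.4% of all kept probe sets. An unadjusted limma p under 0.05 was reached by 9 of the 29, where 31.0% of all kept probe sets reached it. An adjusted p under 0.05 was reached by 2 of the 29, where 9.63% of all kept probe sets reached it. With no signal filter, or with OC1-KO embryo 2 or 3 or WT embryo 2 or 3 left out, 0 probe sets of the 10 genes did. The shares of the RNA-binding genes were close to the background of the array.

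Elavl3 and Elavl4 were higher in the embryos numbered 3 with every probe set. For Elavl3 1452524_a_at the signals of number 3 were 10.62 in OC1-KO and 10.60 in WT, against 10.20 and 9.93 in OC1-KO embryos 1 and 2 and 10.05 and 9.88 in WT embryos 1 and 2. This is 0.60 ± 0.11 (SE) higher, with an adjusted limma p of 0.0405. With each of the 6 arrays left out in turn, the adjusted limma p was over 0.05, from 0.0617 without OC1-KO embryo 1 to 0.212 without OC1-KO embryo 3. The other 2 Elavl3 probe sets were 0.23 and 0.36 higher, and the 3 Elavl4 probe sets between 0.27 and 0.63, with the lowest adjusted limma p of 0.0529 for Elavl4 1450258_a_at. Between numbers 1 and 2 the Elavl4 probe sets did not move alike, although 1452894_at and 1428741_at were designed on 1 source sequence. The mean of 1452894_at was 12.29 in number 1 and 12.72 in number 2, while that of 1428741_at was 12.53 in number 1 and 12.13 in number 2.

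Nova1 and Nova2 were on the other side. The Nova1 signals above give a number 3 difference of -0.53 ± 0.12 (SE), an unadjusted limma p of 0.00557 and an adjusted p of 0.0535, and both number 3 arrays lay under the other 4. Nova2 1439192_at was at -0.41 ± 0.18 (SE), a difference carried mainly by OC1-KO embryo 3, as the WT arrays lay close together. Elavl1 was at -0.06 ± 0.12 (SE) and Elavl2 at -0.10 ± 0.13 (SE) with their brightest probe sets. The dimmer Elavl1 1440464_at gave 6.94 in OC1-KO embryo 3 and 7.41 in WT embryo 3, under all of the 8.05 and 7.90 in OC1-KO embryos 1 and 2 and the 7.60 and 7.89 in WT embryos 1 and 2. Its difference of -0.68 ± 0.21 (SE) had an unadjusted limma p of 0.0197 and an adjusted p of 0.099. With 1 array left out, this difference ran from -0.33 without OC1-KO embryo 3 to -1.03 without WT embryo 3.

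Msi2 was split among its own probe sets. Signals of 1441185_at were 9.37 in OC1-KO embryo 3 and 9.26 in WT embryo 3, against 10.42 and 10.27 in OC1-KO embryos 1 and 2 and 10.39 and 10.27 in WT embryos 1 and 2. This difference of -1.02 ± 0.11 (SE) had an adjusted limma p of 0.0200, the lowest among the 29. In 1435521_at the direction was opposite, with 8.58 in OC1-KO embryo 3 and 9.34 in WT embryo 3, against 8.36 and 7.32 in OC1-KO embryos 1 and 2 and 8.03 and 7.99 in WT embryos 1 and 2. That difference was 1.03 ± 0.25 (SE, adjusted limma p 0.0668). The 5 other kept Msi2 probe sets lay between, from -0.74 for 1443008_at to 0.46 for 1435520_at. Where each probe set lies along the gene was not analysed here.

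Neither kept probe set of Msi1 reached an unadjusted limma p under 0.05 by embryo number. The bright 1452287_at was at 0.28 ± 0.12 (SE, p 0.0571, limma). The dimmer 1444306_at was at -0.60 ± 0.30 (SE, p 0.102, limma). With 1 array left out it moved both ways. It was -0.28 without OC1-KO embryo 1 and -0.24 without OC1-KO embryo 3, but -0.92 without WT embryo 1 and -0.96 without WT embryo 3. For Rbfox2 the difference was 0.53 ± 0.26 (SE) with 1418245_a_at and 0.00 ± 0.15 (SE) with 1434938_at. Rbfox1 1418314_a_at was at -0.05 ± 0.30 (SE), whereas its dim 1438217_at, below the filter, gave 7.50 in OC1-KO embryo 3 and 7.86 in WT embryo 3, against 6.47 to 6.63 in the other 4 arrays.

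**Figure D4:**
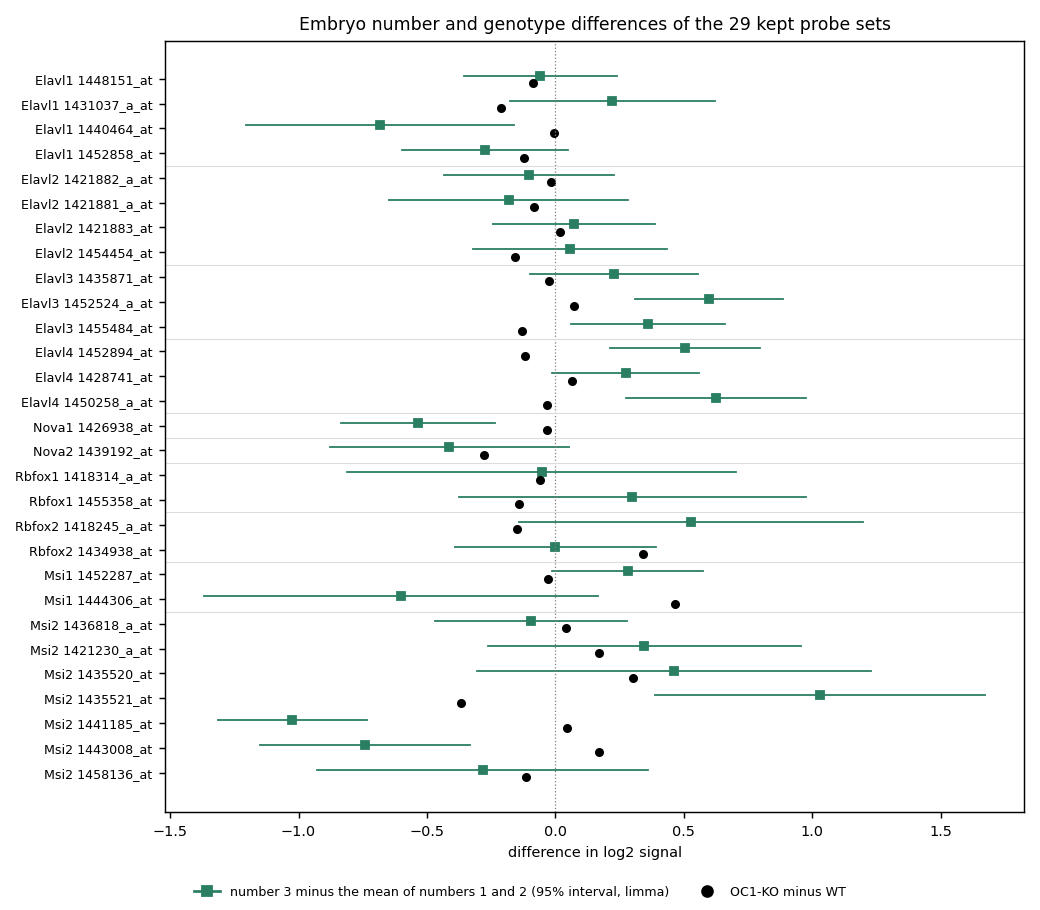
Difference of embryos numbered 3 from the mean of those numbered 1 and 2 (green squares, 95% interval from limma) and OC1-KO minus WT difference (black points), in log2 units, for the 29 kept probe sets. All Elavl3 and Elavl4 squares lie right of 0, the Nova squares lie left of it, and the Msi2 squares lie on both sides.

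Markers of other tissues differed by embryo number too. Of 6 lens genes, 2 passed the filter, and their summed signal was 6600 in OC1-KO embryo 3 and 13200 in WT embryo 3, and at most 151 in the other OC1-KO arrays and 95.2 in the other WT arrays. The lens crystallin Cryaa, below the filter by its genotype means, had log2 signals of 10.49 in OC1-KO embryo 3 and 11.59 in WT embryo 3, and at most 4.09 in the other OC1-KO arrays and 3.04 in the other WT arrays. The red blood cell gene that passed the filter, Hbb-y, was at 20700 in OC1-KO embryo 3 and 14800 in WT embryo 3, against at most 609 in the other OC1-KO arrays and 272 in the other WT arrays. The 2 pigment epithelium genes that passed summed to 1400 in OC1-KO embryo 3 and 471 in WT embryo 3, and Col1a2, a periocular mesenchyme gene, was at 1270 in OC1-KO embryo 3 and 1100 in WT embryo 3, all above the other 4 arrays. Of these genes, the lens genes Crybb1 and Cryba1, Hbb-y and the pigment gene Dct had a genotype mean over 7 only through their number 3 arrays. The filter thus selected them by the values compared here, and their signals describe these arrays only. The retina's own markers were abundant in all 6 arrays. Retinal progenitor genes, 9 of 10 measured, summed to between 73000 and 97200 in OC1-KO and between 66900 and 95000 in WT. Of the 9, 7 were higher in number 3 than the mean of numbers 1 and 2 (median 0.38). Early retinal neuron genes, 9 of 10 measured, summed to between 92800 and 124000 in OC1-KO and between 86700 and 117000 in WT. Of the 9, 8 were higher in number 3 than that mean (median 0.19). Both sums were lowest in embryo 2 of each genotype. In WT they were highest in embryo 1, at 95000 for progenitor and 117000 for neuron genes. WT embryo 3 had 81500 and 113000. Of 4 endothelial genes, 1 passed the filter, Kdr. It was lowest in the number 3 arrays of both genotypes (number 3 difference -0.58). Its signals were 1210 in OC1-KO embryo 3 and 1120 in WT embryo 3. They were up to 2190 in the other OC1-KO arrays and up to 1960 in the other WT arrays. The endothelial genes below the filter did not move alike, with number 3 differences of -0.37 (Pecam1), 0.16 (Cdh5) and 1.52 (Tek). Their mean log2 signals were 3.15 in OC1-KO and 3.35 in WT for Pecam1, 5.16 and 5.07 for Cdh5, and 4.25 and 3.92 for Tek. Kdr was far brighter, at 10.55 in OC1-KO and 10.58 in WT. Whether the Kdr signal came from endothelium was not tested. The 2 macrophage genes that passed summed to between 515 and 716 in OC1-KO and between 610 and 664 in WT. The part of these markers in the Elavl, Nova and Msi2 values was not tested. Without the embryos numbered 3, 0 of 29 kept probe sets of the 10 genes reached an unadjusted limma p under 0.05 between OC1-KO and WT, where 2.23% of all probe sets kept in that fit did.

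Other RNA-binding proteins of neurons were counted for comparison, from a list of 29 genes of which 26 were measured, each by its brightest probe set. OC1-KO was higher in 9 and lower in 17, with a median of -0.06, and 0 reached an unadjusted limma p under 0.05. With embryo pairs as a block, 1 of the 26 did, where 4.37% of all kept probe sets did and 0 passed after adjustment. This was Cpeb2, a regulator of translation, at -0.53 ± 0.23 (SE without the block), with a block p from limma of 0.00763 against 0.0592 without it. Rbfox3, the neuronal antigen NeuN, was at 0.10 ± 0.14 (SE). By embryo number, 12 were higher and 14 lower in number 3, and 4 reached an adjusted limma p under 0.05, where 9.63% of all kept probe sets did. With no signal filter, or without WT embryo 3, 0 of all probe sets did. Named after their values were seen, these were the neuronal splicing activators Srrm3 (-1.48) and Srrm4 (-1.16), the splicing repressor Ptbp1 (0.68) and Khdrbs1 (0.67), which encodes Sam68.

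Of 10 genes known as targets of these proteins, 7 were measured. OC1-KO was higher in 3 and lower in 4, with a median of -0.01, and 0 reached an unadjusted limma p under 0.05. By embryo number, 3 were higher and 4 lower in number 3, with a median of -0.13. Gap43, whose mRNA Elavl4 stabilises, gave 13.10, 12.92 and 13.63 in OC1-KO embryos and 13.19, 13.01 and 13.48 in WT embryos. Its number 3 arrays were the highest in both genotypes, with a number 3 difference of 0.50, while the difference between genotypes was -0.01 ± 0.23 (SE, n = 3 each).

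Among 10528 other genes, the patterns most like that of Elavl4 over the 6 arrays were those of Sbk1, Ncbp2 and Hsp90b1. Likeness was the root mean square difference of the 6 centred log2 signals, which was 0.04 for Sbk1, 0.04 for Ncbp2 and 0.05 for Hsp90b1, where Elavl4 itself deviated by 0.30 from its mean. For Msi1 the nearest were Ube2o at 0.01, Coq8b at 0.03 and BC029722 at 0.04, with a deviation of 0.17 for Msi1 itself. Elavl3 differed from Msi1 by 0.07 and was the nearest of the other 9 genes to it. These values are descriptions over 6 arrays, and 13.3% of genes lay within 0.15 of Msi1.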

How the data were processed

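Retinal RNA of 3 OC1-KO and 3 WT embryos was amplified, biotin-labelled and hybridised to Affymetrix mouse genome arrays, 1 array per embryo. The deposited values are MAS5 signal intensity per probe set, which the authors background-adjusted and scaled, to a 2% trimmed mean of 500 in each array, with the MAS5 method of the affy package (no version of it given in the sources used here). Intensity has no read depth, and 3 arrays per genotype limit the precision. The median signal of an array was between 85.0 and 104.

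The values were log2 transformed and 64 control probe sets left out. A probe set was kept where its mean log2 signal exceeded 7 in OC1-KO or in WT, as in the study's methods. OC1-KO and WT were compared with limma 3.58.1 in R 4.3.3 (genotype only, two-sided), with Benjamini-Hochberg adjustment over 20888 probe sets, after a test on simulated data. The p-values of the genotype-only fit set a difference against the spread between these embryos within a genotype. Those of the fits with embryo number set it against the spread left after genotype and number. Probe sets below the filter take their values from the fit with no filter. The contrast of embryo number 3 with numbers 1 and 2 had genotype and number in the model. A suffix of _x_at marks probes that may cross-hybridise, _s_at probes shared by several transcripts and _a_at probes for several transcripts of 1 gene.

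Same-numbered embryos deviated together from their genotype means (correlations of 0.51 to 0.67, and 6 of 6 arrays were closest to their own number), so the numbers were treated as pairs in an alternative. The pairing comes from the values and not from a statement in the labels.

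All 10 genes were named, each represented by its probe set of highest mean signal. From the lists of other RNA-binding proteins and of targets, genes of an unadjusted limma p under 0.05 were to be named, and none qualified. Other genes of these lists that appear were named after their values were seen. The members, lists and contrasts were chosen with earlier results of these data known. Array positions relative to the Onecut1 deletion were not analysed here. Gene symbols come from the platform annotation, and promoter sequences from RefSeq (GRCm38.p6). The alternatives were the methods' t-test, other filters, quantile normalization, log2(signal + 16), an intensity trend, the replicate block, leaving out each array, and embryos 1 and 2 alone, the last added later.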

Additional observations from a re-analysis of the deposited data

How the results depend on the processing

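With 3 arrays per genotype, the differences between OC1-KO and WT were smaller than the alternatives could order. Of 150 alternative values of the 10 brightest probe sets, 25 had the sign turned and 125 kept it, and Elavl1 and Nova2 kept their sign throughout. The adjusted p was 0.999 or above in the 140 alternative values that have one. Using embryos 1 and 2 alone gave 0.031 for Elavl2, 0.33 for Rbfox1, 0.037 for Rbfox2 and -0.10 for Msi2, and the mean over a gene's kept probe sets gave 0.10 for Rbfox2 and 0.22 for Msi1. Leaving out 1 array gave -0.071 to 0.043 for Elavl2, -0.13 to 0.10 for Elavl3, -0.31 to 0.070 for Elavl4, -0.23 to 0.13 for Nova1, -0.38 to 0.15 for Rbfox1, -0.45 to 0.23 for Rbfox2, -0.14 to 0.091 for Msi1 and -0.080 to 0.26 for Msi2. The adjusted count between genotypes was 0 in every alternative. At an unadjusted p under 0.05 the main 210 probe sets became 477 with embryos 1 and 2 alone, 121 with an intensity trend, 117 with the filter at 8, 316 with the methods' t-test (0 after Benjamini-Hochberg), 1305 with no filter and 913 with the replicate block, and 185 to 441 when 1 array was left out. Of the members, 2 then passed with no filter, and 0 to 2 with 1 array left out, where Nova2 1439192_at and Msi2 1458136_at passed without OC1-KO embryo 1. The replicate block by embryo number changed no call of a member. For embryo number 3, the 2012 probe sets at an adjusted p under 0.05 became 3871 with an intensity trend, 0 with no filter (8 members at an unadjusted p under 0.05, limma) and 0 to 1982 with 1 array left out, the lowest without WT embryo 3. It was 9 without OC1-KO embryo 2 or 3 and 14 without WT embryo 2. The unadjusted count was 3780 to 6350 with 1 array left out. The members at an unadjusted p under 0.05 were 14 with an intensity trend and 6 to 14 with 1 array left out. Those at an adjusted p under 0.05 were 8 with an intensity trend, 6 with log2(signal + 16), 0 with no filter and 0 to 5 with 1 array left out (0 without OC1-KO embryo 2 or 3 or WT embryo 2 or 3). The cause of these changes was not tested.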
